A study of Saccharomyces cerevisiae with 3 samples.

Results

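The expression profile of *met15Δ* cells was compared with that of wild-type cells on Day 3 of culture, over every *Saccharomyces cerevisiae* probe set with a signal of at least 500 on at least 1 of the 2 arrays. This rule kept 4731 probe sets for 4697 genes, out of 5498 probe sets for 5449 yeast genes, and the array carries 10928 in all. *MET15*, named *MET17* in the annotation of the array, encodes the enzyme that joins sulfide to O-acetylhomoserine and so makes homocysteine, the precursor of methionine. Cells that lack it cannot make methionine from sulfate and served the study as a genetic model of methionine restriction.

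The strains were haploids of the BY4741/BY4742 background, and the wild-type, *met15Δ* and *met15Δ rtg3Δ* strains share the alleles *his3Δ1*, *leu2Δ0* and *ura3Δ0*. The *met15Δ0* deletion removes the gene without a marker, whereas *RTG3* was replaced with *KanMX*. The cells were aged in liquid synthetic complete medium and harvested at the same time point. Each genotype had 1 array of 1 culture, so the signals carry no error, no test was made, and a difference between the genotypes cannot be told apart from a difference between 2 cultures. In bulk RNA, fewer cells with a transcript and less transcript per cell cannot be told apart either.

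On Day 3 yeast in glucose medium are leaving growth on sugar. As glucose runs out, cells stop making low-affinity sugar transporters and ribosomes, take up and burn the ethanol and acetate that they had excreted, store trehalose and glycogen, and make more antioxidant enzymes. Sulfur metabolism is tied to these pathways, since sulfate is reduced at the cost of NADPH and feeds methionine, S-adenosylmethionine, cysteine and glutathione.

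Signals are RMA values on a linear scale, given throughout with wild-type first and *met15Δ* second, and a value from *met15Δ rtg3Δ* cells is named where it appears. "Higher" and "lower" mean a ratio of at least 2-fold, the threshold of the study, and a log2 ratio is the difference of *met15Δ* from wild-type. A fold is written as "at least" where the lower signal lay under the brightest probe set of another species on that array, which had 273.3 on each of the 2 arrays. Counts for a gene list cover those of its probe sets that reached the minimum of 500, and a gene that reached it on 1 array alone enters a list through that array. Such a gene can only be brighter on that array, so it bears on the counts in 1 direction only.

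In *met15Δ* cells 796 probe sets (16.8%) were higher and 574 (12.1%) were lower, and 3361 lay within 2-fold. The median log2 ratio was 0.03, with the middle part of the distribution, between its quartiles, from -0.50 to 0.69. Differences of at least 4-fold were seen for 158 higher and 136 lower probe sets, and of at least 8-fold for 22 and 36. The 2-fold set depended on the scale: after division of each array by its median signal the split was 497 higher to 899 lower, and after scaling to the bacterial hybridization controls it was 1706 to 231. The array median is that of all 10928 probe sets, 143.6 and 177.3, under the 273.3 of the brightest probe set of another species. That scale thus rests on background signals. The medians of the 4731 probe sets kept were 1887 and 1892. The higher calls thus made up 58.1% of all calls as deposited, 35.6% by array median and 88.1% by the bacterial controls. Gene groups are therefore read against the median of all probe sets, and a list whose median changes sign under either scaling is given with that value. Either scaling shifts every log2 ratio alike, so the median of all probe sets became -0.27 by array median and 0.66 by the bacterial controls. The counts of a list are likewise to be read against the 16.8% higher and 12.1% lower of all probe sets.

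**Figure D1:**
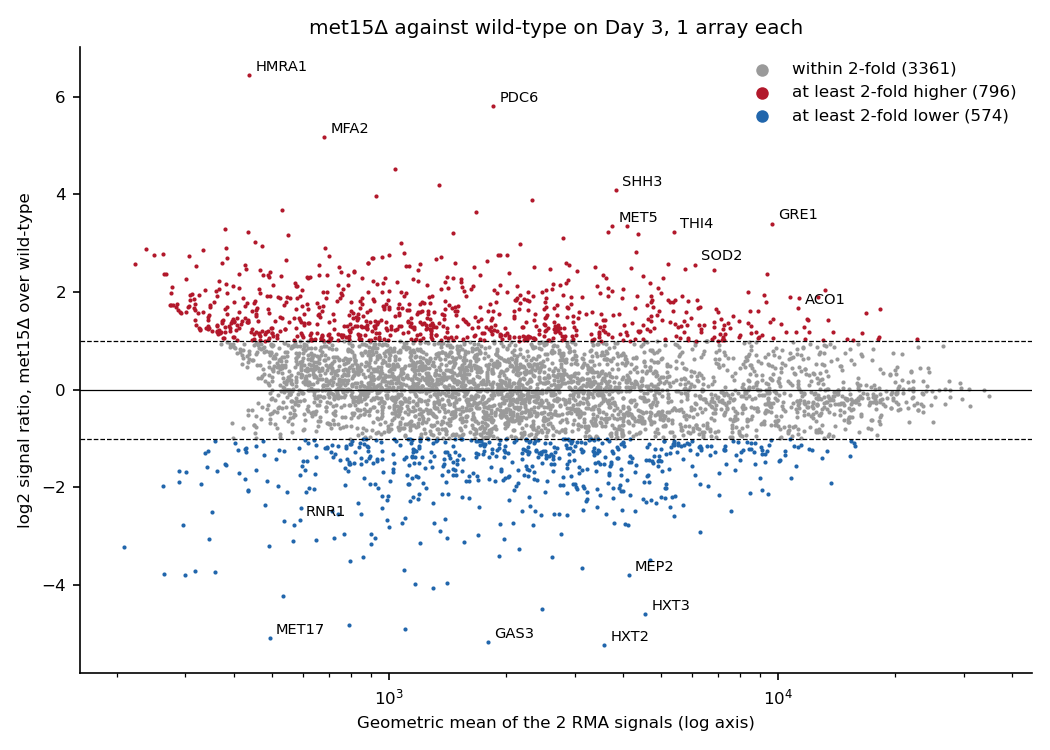
Log2 ratio of *met15Δ* over wild-type signal against the geometric mean of both signals (log axis), 1 point per probe set, with dashed lines at 2-fold. The points spread from -5.22 for *HXT2* to 6.43 for *HMRA1*, and the higher calls (796) outnumber the lower ones (574) mainly at low signal, where probe sets that passed the minimum of 500 on 1 array alone lie.

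The balance of calls differed between dim and bright probe sets, and the minimum of 500 bears on it. Of the probe sets 435 reached the minimum on the *met15Δ* array alone and 165 on the wild-type array alone, and among the probe sets that reached it on both arrays 499 were higher and 460 lower. Among the fourth of probe sets with the lowest mean signal 332 were higher and 126 lower, with a median log2 ratio of 0.41, whereas in the fourth with the highest mean signal the counts were 135 and 139 and the median was -0.15. Among the 1267 probe sets that reached a signal of 5000 on either array, 193 were higher and 223 lower. The wild-type signal of 141 of the higher probe sets lay under the brightest probe set of another species, as did the *met15Δ* signal of 44 of the lower ones. At the edge of the rule, *SRB8* just passed with 501.0 and 498.3 and *GPX2* just failed with 435.2 and 499.6, both within 2-fold, while *UBA3*, which also just passed, had 149.4 and 500.1.

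The arrays also differed in ways that the *MET15* deletion does not describe. The bacterial hybridization controls bioB, bioC and bioD were dimmer in *met15Δ* (21 probe sets, median log2 ratio -0.62), as were the controls dap, lys, phe and thr (33 probe sets, -0.56), but not cre (6 probe sets, -0.02). The ratio of 5′ to 3′ signal was 0.335 and 0.447 for *ACT1*, 0.773 and 0.906 for *TDH1*, and 0.739 and 0.827 for *RIP1*. It was 0.450 and 0.260 for *SPT15* and 0.228 and 0.191 for *WBP1*, and thus differed in opposite directions between genes. The deleted gene was low where the label says so, with *MET17* signals of 2874 and 85.0 and 89.9 in *met15Δ rtg3Δ* cells. *LEU2* and *URA3* had the same background signals of 40.6 and 30.8 on every array, *HIS3*, of which *his3Δ1* removes only a part, had 18655 and 9662, and *LYS2* was measured on every array.

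These differences included mating type genes. Yeast of a and alpha mating type make different pheromones and receptors, and the a-specific genes *MFA1* and *MFA2* (a-factor), *STE2* (alpha-factor receptor), *AGA2* (a-agglutinin) and *BAR1* (alpha-factor protease) were all brighter in *met15Δ*. *MFA2* had signals of 114.0 and 4089 (at least 15.0-fold higher), *AGA2* 148.3 and 1899 (at least 6.95-fold higher), and *BAR1*, under the minimum on both arrays, 71.1 and 392.0. *HMRA1*, whose transcript carries the a1 product, had 47.1 and 4073 (at least 14.9-fold higher). In the other direction *STE3*, the a-factor receptor of alpha cells, had 2157 and 453.6 (4.75-fold lower), and *AFB1*, an a-factor barrier protein of alpha cells, 3924 and 305.9 (12.8-fold lower). The pattern was not complete, since *STE6*, the a-factor exporter, had 891.6 and 1075, and *SAG1*, the alpha-agglutinin, 1007 and 1232. The alpha-factor genes were under the minimum on both arrays, *MF(ALPHA)1* at 344.3 and 101.3 and *MF(ALPHA)2* at 250.4 and 129.3. In *met15Δ rtg3Δ* cells *MF(ALPHA)1* had 2807. The effects of mating type and of *MET15* cannot be told apart in these 2 cultures.

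**Figure D2:**
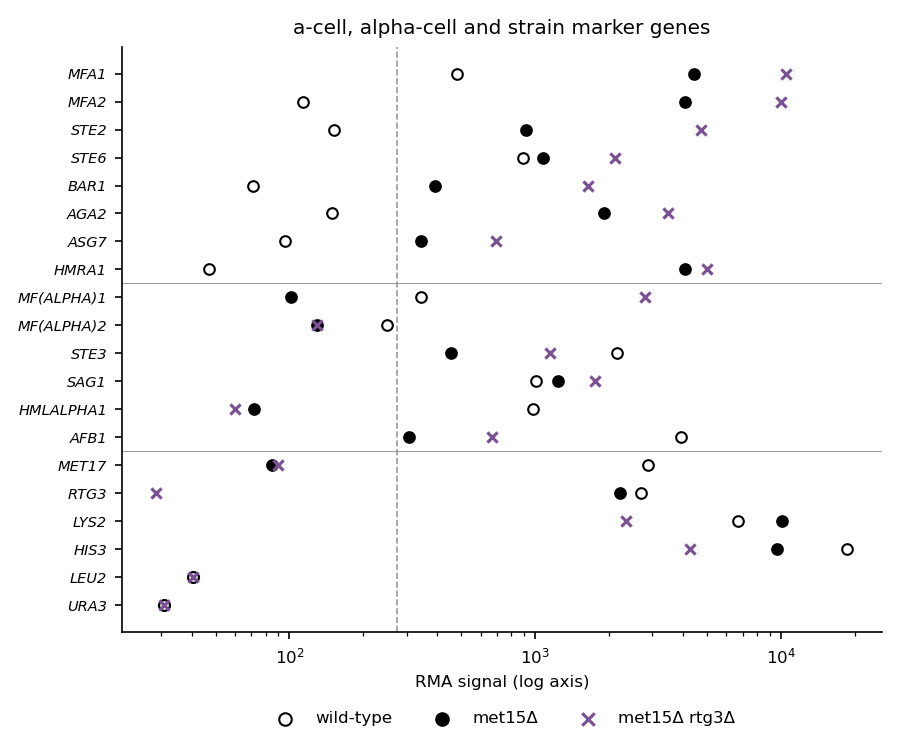
RMA signals (log axis) of a-cell genes (top block), alpha-cell genes (middle block) and deleted or auxotrophic marker genes (bottom block) on the 3 arrays, with a dashed line at the brightest other-species probe set in wild-type. *MFA2* had 114.0 in wild-type and 4089 in *met15Δ*, *STE3* 2157 and 453.6, and *MET17* lay under the dashed line in both mutants.

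The probe sets furthest from wild-type encode proteins of several kinds, some of them uncharacterized. *PDC6*, a minor pyruvate decarboxylase with few sulfur-containing residues, had 248.3 and 13844 (at least 50.7-fold higher) and 895.9 in *met15Δ rtg3Δ* cells. *SHH3* and *SHH4* are homologues of subunits of succinate dehydrogenase. *SHH3* had 925.3 and 15796 (17.1-fold higher) and *SHH4* 314.2 and 5772 (18.4-fold higher). The water channel gene *AQY1*, best known from spores, had 234.6 and 3677 (at least 13.5-fold higher). The hydrophilin gene *GRE1*, which responds to drying and osmotic stress, reached 2968 and 31382 (10.6-fold higher), and was thus bright on both arrays. Among the lower genes *GAS3*, for a glucanosyltransferase-like wall protein, had 10727 and 300.3 (35.7-fold lower). *SMP1*, for a MADS-box transcription factor of the osmotic response, had 6006 and 200.9 (at least 22.0-fold lower). *DIF1*, whose product carries ribonucleotide reductase subunits into the nucleus, had 5302 and 316.9 (16.7-fold lower). *QDR2*, a multidrug transporter, had 4653 and 293.8 (15.8-fold lower). Both probe sets of *PRM7*, a pheromone-regulated membrane protein gene, were lower, with 5544 and 359.6 on the first and 11079 and 887.6 on the second.

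**Figure D3:**
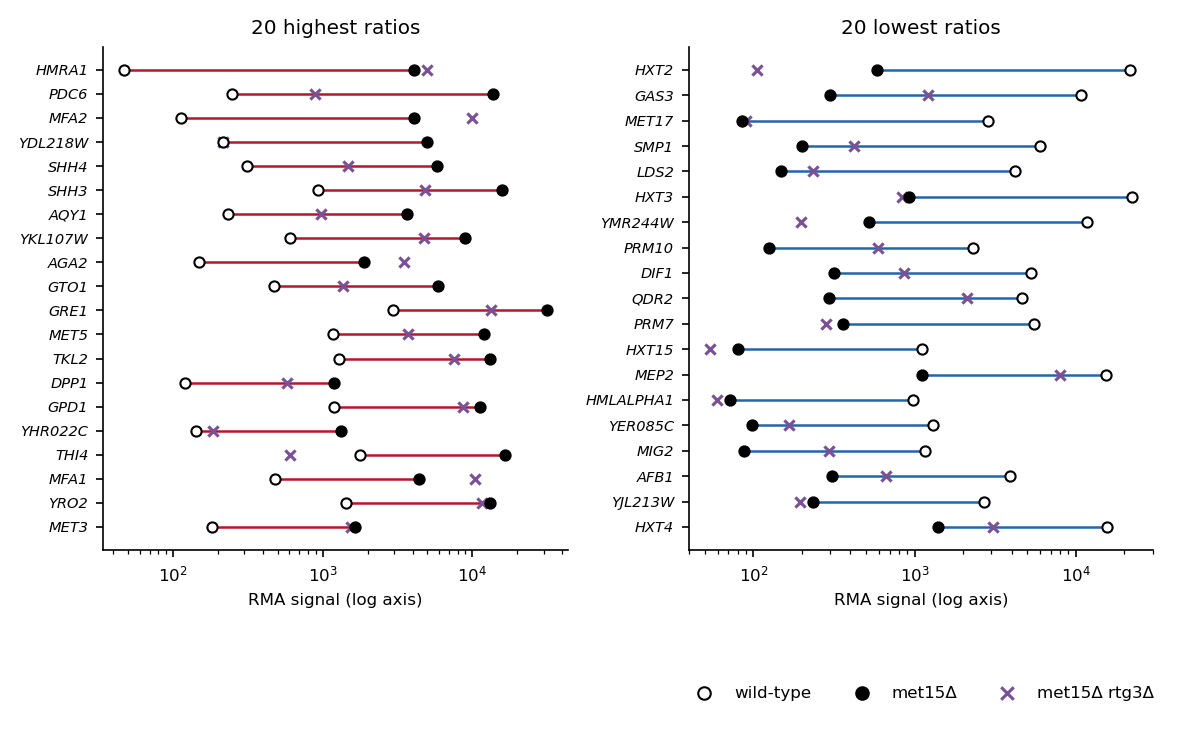
RMA signals (log axis) of the genes with the 20 highest (left) and 20 lowest (right) ratios of *met15Δ* to wild-type, with open circles for wild-type, filled circles for *met15Δ* and crosses for *met15Δ rtg3Δ* (*PRM7*, with 2 probe sets among the 20, drawn once). *PDC6* had 248.3 in wild-type and 13844 in *met15Δ*, and *HXT2* had 21823 and 583.8.

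Hexose transporters had the lowest median of the 76 gene lists examined. Of the 8 hexose transporters and glucose sensors that reached the minimum, out of 15 on the array, 5 were lower and none higher, at a median log2 ratio of -1.84. The largest differences were those of *HXT2*, at 21823 and 583.8 (37.4-fold lower), and *HXT3*, at 22439 and 924.4 (24.3-fold lower). *HXT4*, a high-affinity glucose transporter, had 15668 and 1406 (11.1-fold lower) and the sensor gene *RGT2* 2900.3 and 1275 (2.27-fold lower). *HXT15*, measured by a probe set of the shared kind, had 1113 and 80.3 (at least 4.07-fold lower). *HXT7*, the high-affinity transporter of low-glucose cells, had 20751 and 19475, and *HXT5*, which is made in slow-growing cells, had 11452 and 20532. Hexokinase isoenzyme *HXK2*, the form used on glucose and a partner of the Mig1 repressor, had 17651 and 4055 (4.35-fold lower), beside 14931 and 12816 for *HXK1*.

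Regulators that act on glucose signals had members on both sides. Of 18 measured glucose-repression and carbon-source regulators, a list drawn up after the values were seen, 5 were lower and 3 higher, at a median log2 ratio of -0.02 (0.61 by the bacterial controls). These are shares of 27.8% lower and 16.7% higher, beside 12.1% and 16.8% of all probe sets. Of the repressor genes, *MIG1* had 5766 and 1524 (3.78-fold lower) and *MIG2* 1155 and 87.8 (at least 4.23-fold lower). The *HXT* co-repressor genes *MTH1* and *STD1* were lower too, with 12480.0 and 4348 (2.87-fold lower) and 2216 and 415.2 (5.34-fold lower). *PFK27*, for the kinase that makes a fructose bisphosphate activator of glycolysis, had 6217 and 590.4 (10.5-fold lower). The catalytic subunit gene of the Snf1 kinase, *SNF1*, had 2051 and 4469 (2.18-fold higher). The activators of respiratory growth *ADR1*, *CAT8* and *HAP4* lay within 2-fold, and *HAP4* had 17915 and 13536.

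Most genes of glycolysis itself lay within 2-fold. Of 16 glycolytic enzyme genes 2 were higher and 1 lower, at a median log2 ratio of 0.46: *ENO1*, one of the enolases, had 9749 and 28946 (2.97-fold higher) and *PGK1* 12539 and 26460.4 (2.11-fold higher). The genes of growth on non-fermentable carbon stood further apart. Of 11 gluconeogenesis and glyoxylate cycle genes 7 were higher and none lower, at a median log2 ratio of 1.19. The gluconeogenic fructose bisphosphatase gene *FBP1* had 784.6 and 3443 (4.39-fold higher). The isocitrate lyase gene *ICL1* had 5534 and 20689 (3.74-fold higher), and the succinate-fumarate carrier *SFC1* 1350.3 and 4713 (3.49-fold higher).

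Acetate-using genes gave a mixed list. Of 11 genes of aldehyde dehydrogenases and acetate use 5 were higher and none lower, at a median log2 ratio of 0.10 (-0.21 by array median). The cytosolic stress-induced aldehyde dehydrogenase genes *ALD2* and *ALD3* had 1599 and 5367 (3.36-fold higher) and 578.3 and 1952 (3.38-fold higher). The acetate transporter *ADY2* had 4574 and 11477 (2.51-fold higher). The acetyl-CoA synthetases *ACS1* and *ACS2* were higher as well, with 6959 and 15839 (2.28-fold higher) and 1595 and 3978 (2.50-fold higher). The ethanol-oxidizing alcohol dehydrogenase *ADH2* was within 2-fold, at 10507 and 13192.

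The pentose phosphate pathway, which supplies NADPH, held genes that differed in opposite directions within 1 step. Of its 11 genes 4 were higher and 3 lower, at a median log2 ratio of 0.34. In 3 of its duplicated steps the major form was the lower one and the minor form the higher one. For the lactonase step *SOL3* had 7686 and 991.3 (7.75-fold lower) and *SOL4* 1316 and 7058 (5.36-fold higher). For phosphogluconate dehydrogenase *GND1* had 3077 and 836.9 (3.68-fold lower) and *GND2* 1155 and 6999.9 (6.06-fold higher). For transketolase *TKL1* had 11048 and 2371 (4.66-fold lower) and *TKL2* 1279 and 13059.9 (10.2-fold higher). The transaldolase pair did not share this, since *TAL1* had 8463 and 8739.6 and *NQM1* 9570.0 and 18038. *ZWF1*, for the entry enzyme, had 5351 and 6209.6.

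Such opposite duplicates were found in other processes. Of 21 duplicated or related pairs chosen after the values were seen, 8 had 1 gene higher and the other lower. The glycerol-3-phosphate dehydrogenase of osmotic stress, *GPD1*, had 1196 and 11237 (9.40-fold higher), whereas *GPD2*, the form of oxygen-poor cells, had 2637 and 322.3 (8.18-fold lower). The pyruvate decarboxylase *PDC5* had 10781 and 1571 (6.86-fold lower), opposite to *PDC6*. Of the genes for the hypusine-containing translation factor eIF5A, the aerobic form *HYP2* had 5859 and 15419 (2.63-fold higher) and the hypoxic form *ANB1* 1369.9 and 257.4 (at least 5.01-fold lower). Cytosolic thioredoxin reductase *TRR1* had 5747 and 2059 (2.79-fold lower) and the mitochondrial form *TRR2* 1641 and 7129 (4.34-fold higher). The Hsp70 genes *SSA2* and *SSA3*, the latter made in stationary cells, had 3399 and 1111 (3.06-fold lower) and 5903 and 21726 (3.68-fold higher). Whether the probes of a gene also capture the transcript of its duplicate was not tested.

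**Figure D4:**
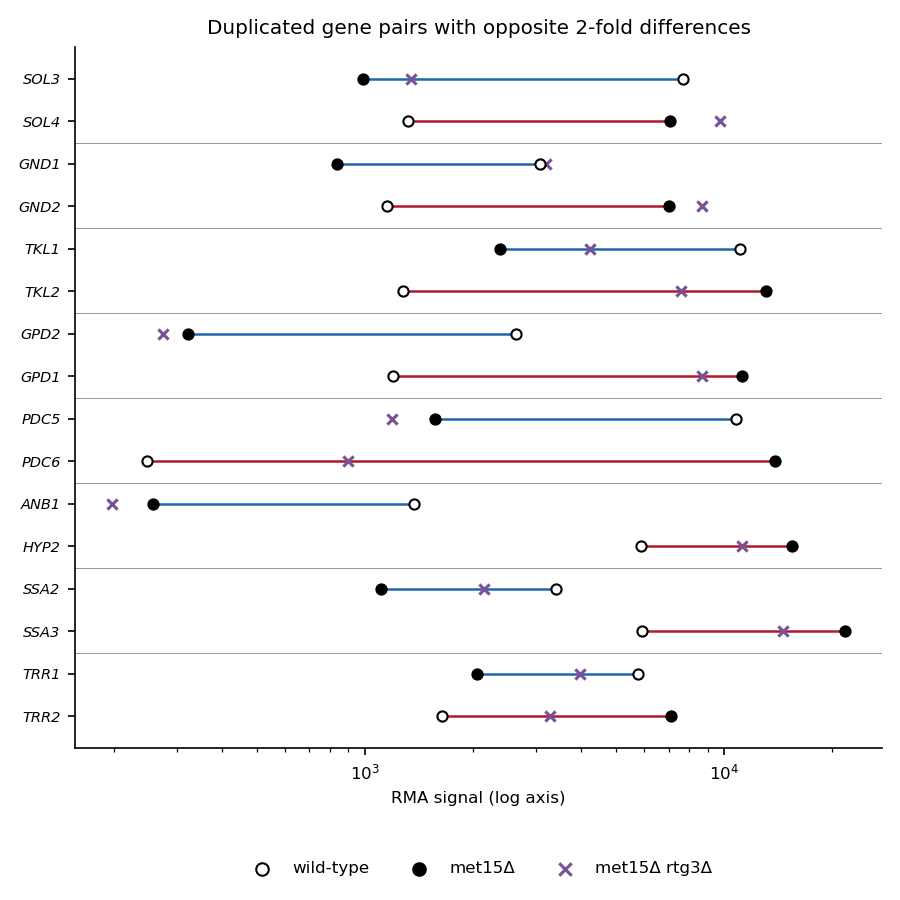
RMA signals (log axis) of the 8 duplicated gene pairs in which 1 gene was at least 2-fold higher and the other at least 2-fold lower in *met15Δ*, with open circles for wild-type, filled circles for *met15Δ* and crosses for *met15Δ rtg3Δ*. *TKL1* had 11048 in wild-type and 2371 in *met15Δ*, whereas *TKL2* had 1279 and 13060.

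A list of hypoxia-induced genes was drawn up after the values of *HYP2* and *ANB1* were seen, and *ANB1* is a member of it. The list also holds *ROX1*, which encodes a repressor of such genes and is not itself hypoxia-induced. Of its 11 measured genes 4 were lower (36.4%, beside 12.1% of all probe sets) and none higher, at a median log2 ratio of -0.81. Without *ANB1* 3 of 10 were lower, and *ROX1* is among these 3. The heme biosynthesis gene *HEM13* had 1618 and 647.9 (2.50-fold lower). The minor cytochrome c gene *CYC7* had 5866 and 2403 (2.44-fold lower), and the repressor gene *ROX1* 5892 and 2051 (2.87-fold lower). The cytochrome oxidase subunit pair had 12425 and 18961 for *COX5A* and 3174 and 1700.2 for *COX5B*, both within 2-fold.

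Reserve carbohydrates formed a higher group. Of 9 trehalose genes 6 were higher and none lower, at a median log2 ratio of 1.18. The synthase *TPS1* had 5844 and 13227 (2.26-fold higher) and the phosphatase *TPS2* 2897 and 7655 (2.64-fold higher). The regulatory subunit *TSL1* had 2524 and 9967 (3.95-fold higher), and the neutral trehalase *NTH1* 8862 and 9770.3. Of 10 glycogen genes 4 were higher and none lower, at a median log2 ratio of 0.92. Both the second synthase *GSY2*, at 1520.1 and 4189 (2.76-fold higher), and the phosphorylase *GPH1*, at 1417 and 8122 (5.73-fold higher), were higher, 1 gene of synthesis and 1 of breakdown.

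Glycerol genes differed in both directions, with 3 higher and 2 lower of 10. *GPP2*, a glycerol phosphatase, had 9435 and 4166 (2.26-fold lower), and the glycerol importer *STL1* 176.0 and 1034 (at least 3.78-fold higher). The dihydroxyacetone kinase *DAK1* had 2647 and 8581 (3.24-fold higher).

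Respiratory genes were mostly within 2-fold. Of 16 tricarboxylic acid cycle genes 4 were higher and none lower, at a median log2 ratio of 0.81. The succinyl-CoA ligase subunits *LSC2* and *LSC1* had 1949 and 8187 (4.20-fold higher) and 1975 and 4034 (2.04-fold higher). ATP synthase genes had 2 higher of 17, at a median log2 ratio of 0.71. The 24 genes of complexes III and IV, cytochrome c and the NADH dehydrogenases had 3 higher and 1 lower, at a median log2 ratio of 0.45, and the external NADH dehydrogenase *NDE2* was the highest at 4140.2 and 21267 (5.14-fold higher). The genes that build the organelle lay nearer to the median of all probe sets or under it. The 67 mitochondrial ribosomal protein genes had 4 higher and 1 lower, at a median log2 ratio of 0.00 (-0.30 by array median and 0.63 by the bacterial controls), and the 29 import genes 2 higher and 5 lower, at a median log2 ratio of -0.31 (0.32 by the bacterial controls). The translocase channel gene *TIM17* had 13081 and 4859 (2.69-fold lower) and the processing protease subunit *MAS2* 3888 and 1564 (2.49-fold lower).

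Upstream of the missing enzyme, most of the genes that bring in and reduce sulfate were higher. Of 10 genes 6 were higher and none lower, at a median log2 ratio of 1.32. The sulfate permeases *SUL1* and *SUL2* had 7384 and 16692 (2.26-fold higher) and 1266 and 3484 (2.75-fold higher). ATP sulfurylase, *MET3*, had 183.1 and 1657 (at least 6.06-fold higher), and the sulfite reductase subunits *MET5* and *MET10* had 1171 and 11981 (10.2-fold higher) and 2882 and 10019.9 (3.48-fold higher). The steps between them were within 2-fold, since APS kinase, *MET14*, had 2022 and 2695 and PAPS reductase, *MET16*, 3381 and 3357.

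Downstream of sulfide the pattern was different. Of 14 genes of homoserine, methionine and S-adenosylmethionine synthesis 4 were lower, the deleted gene among them, and 2 higher, at a median log2 ratio of -0.19 (0.44 by the bacterial controls). The S-adenosylmethionine synthetase *SAM1* had 18272 and 7859 (2.33-fold lower) and S-adenosylhomocysteine hydrolase, *SAH1*, 5985 and 2689 (2.23-fold lower), whereas the methionine synthase *MET6* had 20472 and 15576 and the second synthetase *SAM2* 1528 and 1575. *MHT1*, which makes methionine from S-methylmethionine, had 486.3 and 1205 (2.48-fold higher), and *MMP1*, the S-methylmethionine permease, 1102 and 6097 (5.53-fold higher). Of the methionine permeases, *MUP1* had 2262 and 2350.3, whereas *MUP3* had 10883 and 4911 (2.22-fold lower). Among regulators of the regulon the paralogues *MET31* and *MET32*, DNA-binding partners of Met4, differed in opposite directions, with 3696 and 494.6 (7.47-fold lower) and 559.5 and 2193 (3.92-fold higher). The cofactor gene *MET28* had 1778 and 5364 (3.02-fold higher) and *MET4* itself 6613 and 6031.

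Glutathione, the main thiol store of the cell, was the other sulfur branch with a median well above that of all probe sets. Of 15 genes 9 were higher and none lower, at a median log2 ratio of 1.18. Both synthesis enzymes were higher, *GSH1* at 2929 and 6620.3 (2.26-fold higher) and *GSH2* at 698.1 and 1416 (2.03-fold higher). The omega-class transferases *GTO1* and *ECM4* had 473.4 and 5897 (12.5-fold higher) and 1573 and 8036 (5.11-fold higher). The transporter *OPT1* had 132.0 and 769.6 (at least 2.82-fold higher) and the peptidase *DUG1*, which takes part in glutathione breakdown, 747.3 and 3189 (4.27-fold higher). Glutathione reductase, *GLR1*, was the lowest of the list at 9309.9 and 4862, within 2-fold.

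Antioxidant enzymes were another higher group. Of 12 superoxide dismutases, catalases and peroxidases 8 were higher and 1 lower, at a median log2 ratio of 1.12. The cytosolic catalase *CTT1* had 1625 and 11439 (7.04-fold higher). The mitochondrial manganese superoxide dismutase *SOD2* had 2516 and 14840.3 (5.90-fold higher) and the copper-zinc enzyme *SOD1* 8165 and 16842 (2.06-fold higher). The mitochondrial peroxiredoxin *PRX1* was higher as well, at 5093 and 15516 (3.05-fold higher). The peroxisomal catalase *CTA1* did not follow *CTT1*, with 2665 and 2918, and the nuclear peroxiredoxin *DOT5* was lower at 3179 and 1056 (3.01-fold lower). Of 18 thioredoxin and glutaredoxin genes 7 were higher and 1 lower, at a median log2 ratio of 0.36. The methionine sulfoxide reductases *MXR1* and *MXR2*, which repair oxidized methionine in proteins, had 1882 and 7136 (3.79-fold higher) and 764.3 and 3867 (5.06-fold higher). Of their regulators, *YAP1* had 3438 and 3230.4 and *SKN7* 3265 and 1856, both within 2-fold.

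General stress genes, which respond to the Msn2 and Msn4 factors, had 16 higher and 3 lower of 32, at a median log2 ratio of 0.96. *RTN2*, for a reticulon-like protein, had 736.3 and 4962 (6.74-fold higher). The glutamate decarboxylase *GAD1* had 2140.3 and 12666 (5.92-fold higher), and *TFS1*, an inhibitor of carboxypeptidase Y, 2292 and 11142 (4.86-fold higher). Among desiccation genes *SIP18* had 10354 and 32344 (3.12-fold higher). Chaperones showed no such excess of higher genes, with 2 higher and 3 lower of 23 at a median log2 ratio of 0.14 (-0.16 by array median). The Hsp90 co-chaperone *CPR6* had 9227 and 2978 (3.10-fold lower) and *BTN2*, which sorts misfolded proteins, 16524 and 6583 (2.51-fold lower). The small heat shock gene *HSP26* had 15814 and 32665 (2.07-fold higher). In the endoplasmic reticulum the oxidase *ERO1* had 15533 and 5532 (2.81-fold lower) and the stress factor gene *HAC1* 12918 and 5589 (2.31-fold lower). In the other direction the disulfide isomerase homologue *EUG1* had 1316 and 4854 (3.69-fold higher) and the degradation factor *DER1* 592.6 and 1879.8 (3.17-fold higher).

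Genes for self-digestion made up one of the larger higher groups. Of 29 autophagy genes, out of 32 on the array, 15 were higher and none lower, at a median log2 ratio of 1.04. Some of them, such as *ATG19*, *ATG7* and *ATG17*, reached the minimum on the *met15Δ* array alone and could not have been counted as lower. The cargo receptors *ATG19* and *ATG34*, which bring vacuolar enzymes into the vacuole, had 348.6 and 1892 (5.43-fold higher) and 1197 and 7055 (5.90-fold higher), and their cargo aminopeptidase *APE1* had 1006 and 3999 (3.98-fold higher). The activating enzyme *ATG7* had 239.5 and 1056 (at least 3.86-fold higher) and the scaffold *ATG17* 245.2 and 628.9 (at least 2.30-fold higher). The lipid kinase *VPS34* and its regulatory kinase *VPS15* were higher together, at 1359.6 and 2791 (2.05-fold higher) and 306.4 and 1563 (5.10-fold higher). Of the conjugation genes, *ATG3* had 3809 and 3019.6 and *ATG5* 2367 and 1764, both within 2-fold. Of 14 vacuolar hydrolases and inhibitors 7 were higher and none lower, at a median log2 ratio of 0.99. The inhibitors *PAI3* and *PBI2* had 1426 and 5482 (3.84-fold higher) and 2384 and 10125 (4.25-fold higher), while of the proteases they block *PEP4* had 10722 and 9236 and *PRB1* 12855 and 9956. Of 40 proteasome genes 15 were higher and none lower, at a median log2 ratio of 0.58, and their activator gene *RPN4* was within 2-fold at 7896 and 5967.

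**Figure D5:**
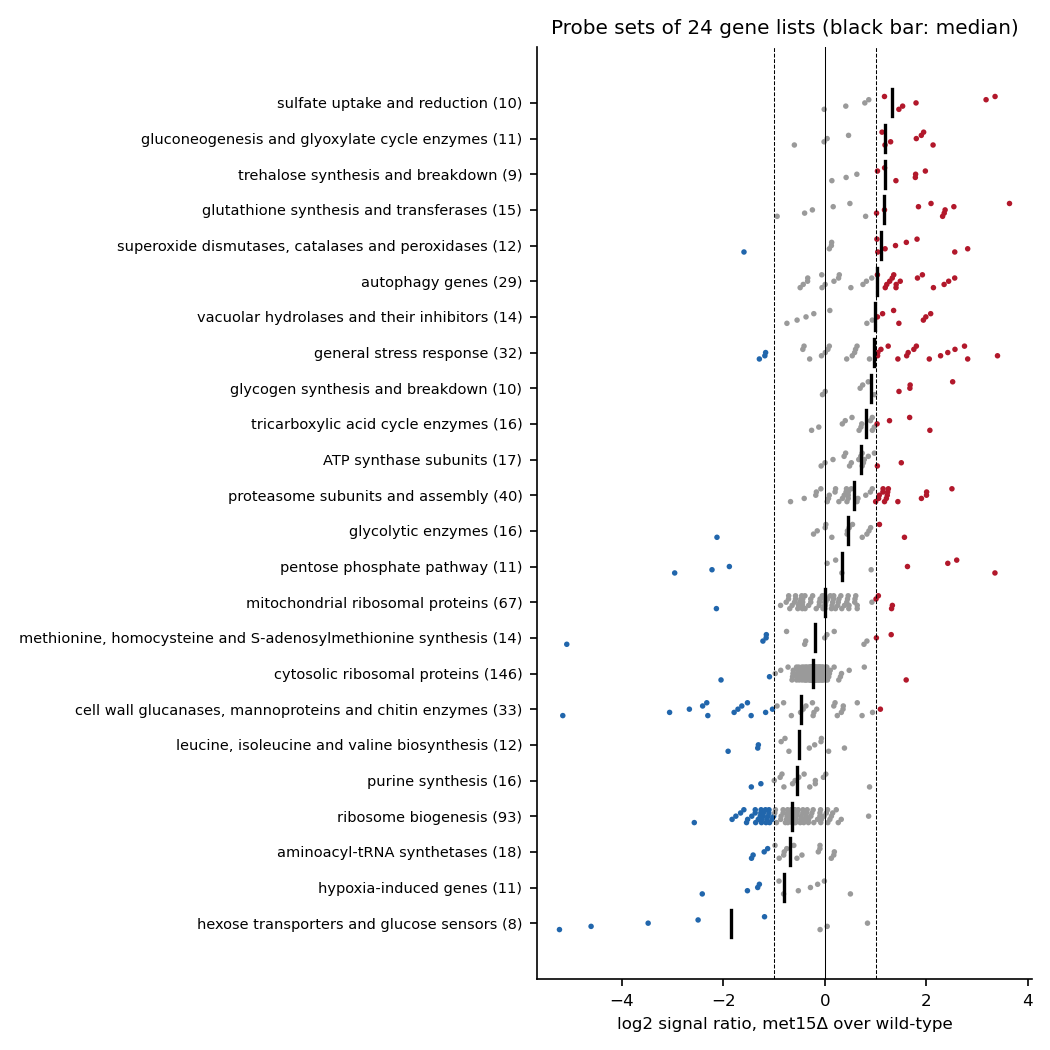
Log2 ratios of *met15Δ* over wild-type for the probe sets of 24 gene lists (number of probe sets in brackets), red at 2-fold or more higher and blue at 2-fold or more lower, with black bars for medians. Medians run from -1.84 for hexose transporters to 1.32 for sulfate uptake and reduction, and ribosomal protein genes lie in a narrow band around -0.23 (0.39 by the bacterial controls).

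Ribosome biogenesis held the most lower genes of the 76 lists, but it is also one of the longest of them. Its lower share was 30.1%, beside 12.1% of all probe sets. Several shorter lists had larger shares, such as 62.5% for hexose transporters and glucose sensors. Of 93 ribosome biogenesis genes 28 were lower and none higher, at a median log2 ratio of -0.64. With the bacterial controls this median was -0.01 and that of all probe sets 0.66, a shift alike for both that cannot change their order. *PWP2*, for a small-subunit processome protein, had 6995 and 1179 (5.93-fold lower) and the rRNA methyltransferase *NOP1* 7377 and 2537 (2.91-fold lower). The exosome subunits *RRP42*, *RRP45* and *RRP46* were lower together, with 4444 and 1255 for *RRP42* (3.54-fold lower). The ribosomal proteins themselves were close to wild-type. Of 146 probe sets 1 was higher and 2 lower, at a median log2 ratio of -0.23 (0.39 by the bacterial controls). The lower ones were *RPS9A* at 6188 and 1502 and *RPS27A* at 22848 and 10751. The higher one was the dim probe set particular to *RPL18B* at 458.4 and 1394 (3.04-fold higher), while the bright probe set that *RPL18B* shares with another gene gave 14451 and 14109.9.

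In other lists of translation most genes were within 2-fold. Of 17 subunits of RNA polymerases I and III 4 were lower and 1 higher, at a median log2 ratio of -0.39 (0.24 by the bacterial controls). Of 25 initiation and elongation factors 4 were lower and 1 higher, a lower share of 16% beside 12.1% of all probe sets, at a median log2 ratio of -0.32 (0.31 by the bacterial controls). The scaffold initiation factor *TIF4631* had 10366 and 2560.3 (4.05-fold lower) and the GTPase activator *TIF5* 8066 and 1921 (4.20-fold lower). The RNA helicase *DED1* had 10732 and 2342 (4.58-fold lower). The elongation factor gene *TEF2* was level, at 33899 and 33802. Of 18 tRNA synthetases 4 were lower and none higher, at a median log2 ratio of -0.68, and the leucyl enzyme *CDC60* had 13996 and 6422 (2.18-fold lower). Of 15 tRNA methyltransferases, which use S-adenosylmethionine, 3 were lower and 1 higher, at a median log2 ratio of -0.03 (0.60 by the bacterial controls): *TRM11* had 3366 and 508.6 (6.62-fold lower) and *TRM9*, the wobble uridine methyltransferase, 337.3 and 525.4.

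Amino acid and nitrogen genes differed by pathway. None of 14 genes of general amino acid control, the Gcn4 system, reached 2-fold, at a median log2 ratio of 0.01 (-0.30 by array median), and *GCN4* had 25151 and 24589. Of 12 genes of branched-chain amino acid synthesis 3 were lower, at a median log2 ratio of -0.50 (0.12 by the bacterial controls), and the cytosolic aminotransferase *BAT2* had 26459 and 7076 (3.74-fold lower). The ammonium permease *MEP2*, made in nitrogen-poor cells, had 15378 and 1111 (13.8-fold lower) and 7972 in *met15Δ rtg3Δ* cells, beside 11045 and 5334 (2.07-fold lower) for *MEP1*. Its other homologue *MEP3* had 2676 and 2925. Of 13 allantoin and GATA-factor genes, out of 18 on the array, 4 were lower and 1 higher, at a median log2 ratio of -0.58 (0.04 by the bacterial controls), led by the 4-aminobutyrate permease *UGA4* at 3573 and 403.7 (8.85-fold lower) and the allantoate permease *DAL5* at 5210.4 and 1221 (4.27-fold lower). Among amino acid permeases the broad-range *AGP1* and the low-affinity *AGP3* had 5876 and 16016 (2.73-fold higher) and 214.4 and 1141 (at least 4.18-fold higher), and the histidine permease *HIP1* 8470.3 and 2492 (3.40-fold lower). In lysine and arginine synthesis single genes stood out, *LYS9* at 2517 and 8981 (3.57-fold higher) and *ARG3* at 2407 and 7641 (3.17-fold higher).

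Vitamin and nucleotide genes held a few differences of over 4-fold. *THI4*, the thiamine thiazole synthase that gives up a sulfur atom of its own protein, had 1765 and 16495 (9.35-fold higher), and only 601.5 in *met15Δ rtg3Δ* cells. Of the other 13 thiamine genes 1 was higher and 1 lower. The stationary-phase pyridoxine pair *SNZ3* and *SNO3* had 3496 and 11106 (3.18-fold higher) and 1482 and 4957 (3.34-fold higher), against 31544 and 27818 for *SNZ1* and 11612 and 6603 for *SNO1*. For NAD synthesis *BNA3*, a kynurenine aminotransferase, had 521.3 and 3337 (6.40-fold higher) and *NMA1*, an adenylyltransferase, 4595 and 528.3 (8.70-fold lower). Of 16 purine synthesis genes 2 were lower (12.5%, beside 12.1% of all probe sets) and none higher, at a median log2 ratio of -0.55 (0.08 by the bacterial controls). In folate metabolism dihydrofolate reductase, *DFR1*, had 250.7 and 1875 (at least 6.86-fold higher) and the mitochondrial synthase *MIS1* 2912 and 581.1 (5.01-fold lower).

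Genes of fatty acid and sterol synthesis were mostly within 2-fold. Of 15 fatty acid genes 5 were higher, none was lower and 10 were within 2-fold, at a median log2 ratio of 0.79, and acetyl-CoA carboxylase, *ACC1*, the committed step, had 6394 and 16239.8 (2.54-fold higher). Of 25 ergosterol genes 6 were higher and 3 lower, shares of 24% and 12% beside 16.8% and 12.1% of all probe sets, at a median log2 ratio of 0.31. *ERG24*, a sterol reductase, had 695.6 and 3360.4 (4.83-fold higher) and HMG-CoA synthase, *ERG13*, 339.4 and 1349.9 (3.98-fold higher), whereas the last enzyme, *ERG4*, had 2498 and 324.3 (7.70-fold lower). The phospholipid methyltransferases *CHO2* and *OPI3*, heavy users of S-adenosylmethionine, had 1505 and 4253 (2.83-fold higher) and 4013 and 12162 (3.03-fold higher), the phosphatidylserine synthase *CHO1* 360.9 and 969.3 (2.69-fold higher), and the phosphatidylinositol synthase *PIS1* 3933 and 740.9 (5.31-fold lower).

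The cell surface was lower in many genes. Of 33 wall genes, out of 41 on the array, 13 were lower and 1 higher, at a median log2 ratio of -0.48 (0.15 by the bacterial controls). Besides *GAS3*, the glucanosyltransferase *GAS1* had 10865 and 2171 (5.00-fold lower) and the glucanase-like protein *SCW10* 5683 and 683.7 (8.31-fold lower). The chitin synthase *CHS1* had 12164 and 2297 (5.30-fold lower) and the wall stress sensor *MID2* 10150.5 and 2058 (4.93-fold lower). Some abundant mannoproteins were not lower, since *CCW12* had 19305 and 24869.5, *SED1* 21526 and 27626 and *CWP2* 3736 and 7986 (2.14-fold higher).

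The actin cytoskeleton, listed after the values were seen, had higher genes and no lower ones. Of 26 genes 11 were higher and none lower, at a median log2 ratio of 0.86. The actin gene *ACT1* had 7251 and 19610.1 (2.70-fold higher). Both capping protein subunits were higher, *CAP1* at 452.9 and 2062 (4.55-fold higher) and *CAP2* at 832.3 and 2721 (3.27-fold higher). So were *ARP2* and *ARP3* of the branching complex, at 1387 and 4039 (2.91-fold higher) and 1659 and 3956 (2.38-fold higher). The adenylyl cyclase-associated protein *SRV2* had 1291 and 5367 (4.16-fold higher), and profilin, *PFY1*, was within 2-fold at 11513 and 7163. The 3′ *ACT1* probe set used as an array control gave 5891 and 16403, and the part of array quality in the *ACT1* ratio was not tested.

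Genes of DNA synthesis differed from subunit to subunit. Within ribonucleotide reductase the large subunit *RNR1* had 1487 and 234.6 (at least 5.44-fold lower), while *RNR2*, *RNR3* and *RNR4* were higher, with 801.8 and 2071 for *RNR3* (2.58-fold higher). *WTM1*, which anchors the small subunit in the nucleus, had 4854 and 14840.0 (3.06-fold higher). Of 27 replication genes 8 were higher and 2 lower, at a median log2 ratio of 0.49, and the sliding clamp *POL30* had 395.5 and 890.3 (2.25-fold higher). The histone genes were within 2-fold for 9 of 11 probe sets. Haploid-specific signalling genes had 5 higher and 2 lower of 10: the G protein subunits *GPA1* and *STE4* had 556.0 and 1803 (3.24-fold higher) and 710.4 and 1834 (2.58-fold higher), and the kinase *FUS3* 5852 and 1542 (3.80-fold lower).

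Ion genes gave opposite members within a list. Of 24 iron regulon genes 6 were higher and 5 lower, at a median log2 ratio of 0.09 (-0.21 by array median): the high-affinity permease *FTR1* and its oxidase *FET3* had 379.4 and 3030.3 (7.99-fold higher) and 1105 and 3048 (2.76-fold higher), but the activator genes *AFT1* and *AFT2* had 2670.4 and 1071 (2.49-fold lower) and 3301 and 717.3 (4.60-fold lower). Of 20 phosphate genes 4 were higher (20%) and 1 lower (5%), beside 16.8% and 12.1% of all probe sets, at a median log2 ratio of 0.50. The secreted phosphatase *PHO5* had 123.1 and 895.8 (at least 3.28-fold higher) and the permease *PHO84* 11034 and 24586 (2.23-fold higher). The zinc-regulated surface protein *ZPS1* had 6515 and 26779.6 (4.11-fold higher), and the copper sensors *MAC1* and *CUP2* 2683 and 728.3 (3.68-fold lower) and 7750.1 and 2150.3 (3.60-fold lower).

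The differences were spread over the genome. The median log2 ratio per chromosome ran from 0.00 to 0.21, the latter for chromosome I, where 13 of 69 probe sets were higher and 2 lower. The lists together held 1352 of the 4731 probe sets (28.6%), among them 241 of the 796 higher and 157 of the 574 lower. Most called probe sets, like most of all probe sets, thus lay outside the gene groups described.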

How the data were processed

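RNA of 3 yeast genotypes was measured on 1 Affymetrix Yeast Genome 2.0 array each, and the wild-type and *met15Δ* arrays were compared. The authors background-corrected the scans and summarized them with RMA in RMAExpress, and the deposited values are probe set signal intensities on a linear scale. Labelling was biotinylated cRNA per the labels. RMA also appears in the submitters' processing notes, where it has no version. Ratios were taken on the deposited signals with no further normalization (Python 3.11.15, pandas 2.3.3, numpy 2.4.6). With 1 array per genotype no test was possible, and the number of arrays limits the precision.

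Gene names came from the platform annotation, matched by gene identifier to a gene table of assembly R64, used for names only. Probe sets of another species (1746), with no symbol (3517) or several genes (1), and controls (166) were left out, as were 767 yeast probe sets under 500 on both arrays. The counting of 2-fold calls and the median were checked on simulated signals with known ratios and no noise. That check could not test the signal minimum, the gene lists or the scalings.

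The rules for naming genes covered the 20 highest and 20 lowest ratios and the 10 highest and lowest at a signal of 5000. They also covered up to 6 members of each gene list with the largest ratios, and every member of short lists. Neighbours of *MET15* and *LYS2* and the probe sets beside the minimum were included. The text names only a selection of these genes, and some lists, such as the retrograde response targets and regulators, are not described. A few further members of lists and the gene pairs were chosen after their values were seen. The members and the first 73 lists were chosen with earlier results of these data known, and 3 lists were added after the values were seen. Alternatives were 3 scalings, 3 signal minimums, an added signal of 100 and a 3-fold threshold.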

Additional observations from a re-analysis of the deposited data

Results flagged for a closer look

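A signal also appeared in data outside the comparison. Of 3517 probe sets that have no gene symbol in the annotation used here, 182 reached a signal of 500 on the wild-type or *met15Δ* array, above the brightest probe set of another species. Of these 182, 39 had a *met15Δ* signal at least 2-fold above wild-type and 25 at least 2-fold below it. Among the probe sets with a gene name the shares were 16.8% and 12.1%. The lowest ratio belonged to a probe set with 1274 in wild-type and 141.0 in *met15Δ*. Some of the 182 carry the names of reporter probe sets (RPTR), and those lay within 2-fold. The 182 are unnamed here and entered no gene list. With 1 array per genotype no check for a sample far from its replicates was possible.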

How the results depend on the processing

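The counts of 2-fold calls changed with the scale and the threshold. As deposited they were 796 higher and 574 lower, against 497 and 899 after division by the array median and 1706 and 231 on the scale of the bacterial controls. The array median lay under the brightest probe set of another species on both arrays. A 3-fold threshold gave 333 and 240, and a signal of at least 500 on both arrays gave 499 higher and 460 lower. Quantile normalization (697 and 601), minimums of 200 (905 and 603) and 1000 (616 and 534) and an added signal of 100 (682 and 519) kept both counts within 1.5 times.

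Of the 28 gene lists with a median log2 ratio of at least 0.5 in size, 4 changed sign with the bacterial controls: branched-chain amino acid synthesis became 0.12, allantoin and GATA-factor genes 0.045, purine synthesis 0.081, and the deleted and auxotrophic markers 0.010. This scaling also moved the median of all probe sets from 0.03 to 0.66. It shifts every ratio alike, so the place of these 4 lists under that median could not change. The mating-type loci became 2.44 at a minimum of 1000, and the alpha-cell genes 0.29 at 500 on both arrays, where fewer probe sets remained. Division by the array median shifts every ratio alike by less than the 0.5 that chose these lists, and an added signal cannot turn a ratio, so those settings could change no sign. Of the 324 called probe sets that the naming rules covered, 53 dropped under 2-fold with the bacterial controls, 44 by array median, 22 with the added signal and 18 by quantile normalization. No paired analysis was possible because the result comes from no test, with 1 array per genotype.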

Other observations

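Of the 5 measured genes within 3 steps of the deletion, 2 passed 2-fold, beside 29.0% of all probe sets in either direction. *ACO1*, for mitochondrial aconitase, lies next to *MET17* in the order of systematic names and gave 6311 in wild-type against 20113 in *met15Δ* (3.19-fold higher), with 19400 on the *met15Δ rtg3Δ* array. On the other side *HRI1* had 705.1 and 769.6 and *EXG1* 4967 and 8270, both within 2-fold. *UBC12*, 3 genes away on the side of *ACO1*, had 100.5 and 689.3 (at least 2.52-fold higher), and *STT4*, between them, 1399 and 2700.0, within 2-fold. Whether the deletion acts on its neighbours was not tested. Beside *LYS2*, at which parents of this background can differ, *TKL2* had 1279 and 13060 and *RAD16* 8308 and 3003, while *TEF2* at 33899 and 33802, *SUS1* at 676.3 and 992.6, *CYC8* at 2292 and 1392 and *MUD1* at 2593 and 3018 were within 2-fold.

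Some sporulation genes were bright in these haploid cultures. Of 14 spore wall and late sporulation genes that reached the minimum, out of 36 on the array, 5 were higher and 5 lower. *LDS2*, for a lipid droplet protein of spores, had 4173 and 149.1, whereas *SPS100*, for a spore wall protein, had 6563 and 24425.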
